A study of Mus musculus with 37 samples.

Results

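Podocytes are epithelial cells whose foot processes cover the outside of the glomerular capillaries. RNA bound to their ribosomes was compared between mice with a model of type 2 diabetes and controls at 3 months of age. The libraries were chosen by their labels, 5 diabetic and 5 control libraries out of 37 in the whole series. The diabetic mice had the genotype eNOS-/- db/db and the controls eNOS-/-, both on strain C57BL/6. Both groups thus lack the endothelial nitric oxide synthase, and they differ by db/db, a mutation of the leptin receptor that makes mice obese and diabetic. No mouse with intact eNOS entered the comparison, so effects of db/db without eNOS loss were not measured. The RNA came from translating ribosome affinity purification (TRAP), in which tagged ribosomes of 1 cell type are pulled out of a whole-organ lysate. The deposited tables are named for a Cre recombinase under the control of a podocyte promoter. The labels do not say whether each library is a separate mouse. TRAP libraries of the same genotypes at 6 months, 3 diabetic and 4 control, entered the same model fit. A single library of total RNA from a whole eNOS-/- kidney at 3 months was used only to divide genes into those higher and those lower in TRAP RNA.

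Podocytes send out foot processes that are joined by slit diaphragms, built from nephrin and related proteins, and they lay down part of the basement membrane beneath them. In diabetic kidney disease podocytes lose foot processes and are shed, and protein leaks into the urine. TRAP enriches the RNA of the tagged cell but always carries over some RNA of its neighbours. In kidney the most abundant neighbours are proximal tubule cells, which reabsorb filtered solutes and, in male mice, express many genes under the control of androgens.

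Total counts were 14866828 to 37786025 in the diabetic libraries and 19905606 to 28870716 in the controls. Of 44 podocyte identity genes, 43 were higher in the 10 TRAP libraries than in kidney, with a median ratio of 20.9, and none of 30 proximal tubule markers was, at a median 2.91 times lower. Reads of Nos3, the eNOS gene, were found in all 10 libraries, 52 to 213 counts in diabetic and 60 to 128 in control libraries, and in the kidney library (130 counts), so the counts alone do not show the knockout. Y-linked genes were read in all 10 libraries, and Xist had 0 to 11 counts in diabetic and 0 to 1 counts in control libraries. Diabetic libraries 4 and 5 stood apart. On the first principal component, which held 31.1% of the variance, they lay at -102 and -56, against -3.59, 7.48 and 15.2 for diabetic libraries 1 to 3 and 18.4 to 38.8 for the controls. The summed level of 18 macrophage and dendritic cell markers was 71.5, 57.2, 61.7, 416 and 218 CPM (reads scaled to library size) in diabetic libraries 1 to 5, against 73.2 to 105 CPM in the controls. Results are therefore given with and without libraries 4 and 5. In bulk RNA of this kind, fewer cells of a type and less RNA per cell cannot be told apart.

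At 3 months 685 of 17180 genes tested were called (3.99%), 348 higher (2.03%) and 337 lower (1.96%) in diabetic libraries, at an adjusted p under 0.05 in edgeR's quasi-likelihood test. Before adjustment 2779 genes (16.2%) had a p under 0.05. The groups did not overlap in 1144 genes (6.66%), with the diabetic libraries above in 505 (2.94%) and below in 639 (3.72%), and 541 genes were both called and free of overlap (3.15%). Among genes higher in TRAP than in kidney, risers outnumbered fallers: 241 of 8958 rose (2.69%) and 87 fell (0.971%). Among genes lower in TRAP, fallers outnumbered risers: 107 of 8222 rose (1.3%) and 250 fell (3.04%). The level in the diabetic libraries enters this division, which by itself favours rises in the first class and falls in the second. Divided by the 6-month controls, which are not in the comparison, 165 of 7662 genes higher in TRAP rose (2.15%) and 92 fell (1.2%), and 183 of 9518 genes lower in TRAP rose (1.92%) and 245 fell (2.57%). By the 3-month controls, a choice that favours the opposite directions, the counts were 153 higher (1.86%) and 100 lower (1.22%) of 8217, and 195 higher (2.18%) and 237 lower (2.64%) of 8963. More risers than fallers among genes higher in TRAP, and more fallers than risers among genes lower in TRAP, were thus counted under all 3 divisions.

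Divided by all 10 libraries, 40 of 111 genes at least 4 times lower in TRAP fell (36%) and no gene rose, and of 1269 genes 2 to 4 times lower, 134 fell (10.6%) and 5 rose. By the 6-month controls 9 of 76 and 141 of 1719 fell, and 1 and 32 rose. By the 3-month controls 91 of 1483 genes 2 to 4 times lower fell and 63 rose, while of 64 genes at least 4 times lower 3 rose and no gene fell. Fallers thus outnumbered risers at 2 to 4 times lower under all 3 divisions, and at 4 times lower or more the direction turned with the division. At the podocyte end fallers outnumbered risers when all libraries were used. Of 604 genes at least 4 times higher in TRAP by the 6-month controls, 25 rose (4.14%) and 38 fell (6.29%), by the 3-month controls 15 rose (2.45%) and 41 fell (6.69%) of 613, and by all 10 libraries 32 rose (5.03%) and 36 fell (5.66%) of 636. The median log2 change over the 604 genes was -0.0851, beside 0.0358 over all genes tested. Of the 25 risers and 38 fallers by the 6-month controls, 16 each were called without libraries 4 and 5.

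**Figure D1:**
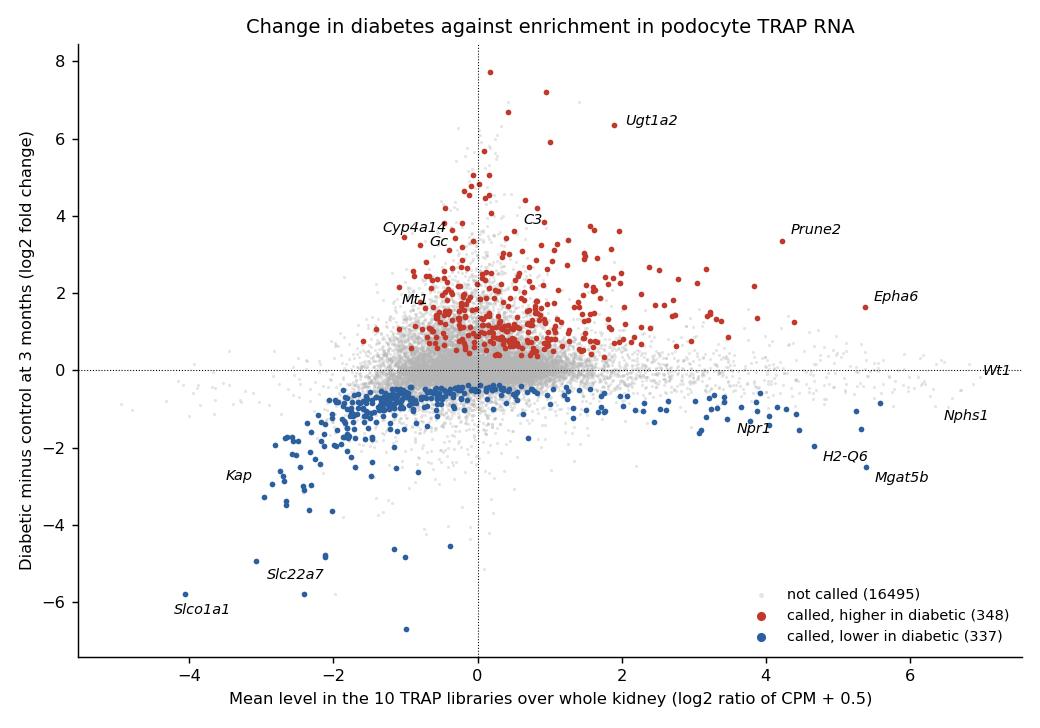
Each point is 1 of 17180 genes, by its mean level in the 10 TRAP libraries over the kidney library (horizontal, log2 ratio of CPM + 0.5) and its change in diabetic against control libraries at 3 months (vertical, log2). Red points are the 348 called higher and blue points the 337 called lower in diabetic libraries. The blue points left of 0 reach a log2 change of -6.69, and those right of 0 reach -2.51 (Mgat5b).

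Leaving out diabetic libraries 4 and 5, 418 of 16774 genes were called, 172 higher and 246 lower. Divided by all 10 libraries, 116 of 8798 genes higher in TRAP then rose and 48 fell. Among 7976 genes lower in TRAP, 56 rose and 198 fell. Of the 685 genes, 319 were called again in the same direction. Over the 348 risers the median log2 change of a single library against the control mean was 0.93, 0.884, 0.732, 1.73 and 1.5 in diabetic libraries 1 to 5, and 116 of them were at least 2 times higher in libraries 4 and 5 than in 1 to 3. Over the 337 fallers it was -0.847, -0.978, -0.777, -1.02 and -0.771, and 328 of them lay within 2 times between the libraries. Of the fits that left out a single library, those without control 4 (404 called), control 5 (451) and 6-month diabetic library 3 (1038) moved the count by over 1.5 times.

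A first set of the genes named below was taken by a rule. For each class and direction it took the 8 called genes with the largest change. Only genes with at least 10 CPM in a group and no overlap between the groups were eligible. The absence of overlap in these is therefore part of the choice. Other genes were named by their gene list, to check the labels, or after their values were seen. CPM are scaled by TMM, which corrects library sizes for composition, and values per library are given in the order of library number.

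At 4 times the kidney level or more by the 6-month controls, the largest called rise was that of Prune2 (chromosome 19, 16956118 to 17223932, GRCm38), which encodes a protein with a BCH domain. In the 6-month controls its level was 13.3 times that of kidney. It stood at 122, 118, 81.7, 121 and 108 CPM in the diabetic libraries, against 12.6, 9.38, 19.1, 8.11 and 5.12 CPM in the controls. Every diabetic library lay above every control, and libraries 4 and 5 lay within the range of 1 to 3. Its log2 change was 3.34 (SE 0.36, adjusted p = 2.57e-05), and 3.30 (adjusted p = 0.000344) without libraries 4 and 5. Its promoter is shown because no other called gene at least 4 times higher in TRAP by the 6-month controls rose as far. It is given as 300 bases by RefSeq (GRCm38.p6, chr19:16955868-16956167, plus strand), with a CArG box, the motif bound by serum response factor, in capitals.
Prune2 promoter: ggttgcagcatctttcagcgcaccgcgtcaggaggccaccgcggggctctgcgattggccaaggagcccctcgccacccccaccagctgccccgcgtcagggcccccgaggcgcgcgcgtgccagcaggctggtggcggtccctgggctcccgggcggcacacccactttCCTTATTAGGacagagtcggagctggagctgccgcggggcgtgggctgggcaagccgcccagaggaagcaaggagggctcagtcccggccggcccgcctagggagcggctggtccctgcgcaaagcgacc
A CArG box on either strand was held by 1.63% of 32851 promoters of this length. The match starts at -80 from the annotated start and is a description of these letters only.

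Other genes higher in TRAP than in kidney also rose. Phlda3, a p53-induced inhibitor of the kinase Akt, stood at 36.5, 51.6, 25.8, 80.1 and 65.3 CPM in the diabetic libraries, against 6.47, 5.74, 5.80, 5.07 and 6.39 CPM in the controls. All 5 diabetic libraries lay above the controls, highest in libraries 4 and 5, and the log2 change was 3.14 (SE 0.42, adjusted p = 0.000199). Tlr4, the receptor for bacterial endotoxin, stood at 24.3, 17.3, 9.81, 25.1 and 16.2 CPM in the diabetic libraries, against 5.51, 5.36, 3.71, 4.01 and 1.98 CPM in the controls, again without overlap. The log2 change of Tlr4 was 2.16 (SE 0.32, adjusted p = 0.000384), and 2.04 (adjusted p = 0.00253) without libraries 4 and 5. Sbsn, a secreted protein of stratified epithelia, rose by 2.92 (SE 0.29, adjusted p = 8.56e-06) on the log2 scale, and Map6, a protein that stabilises microtubules, by 3.26 (SE 0.54, adjusted p = 0.00154). Pdgfa, a growth factor for mesangial cells and fibroblasts, rose by 1.56 (SE 0.18, adjusted p = 2.3e-05) and Klf4, a transcription factor, by 2.09 (SE 0.28, adjusted p = 0.000127). Sbsn, Map6, Pdgfa and Klf4 had no overlap between groups, and without libraries 4 and 5 they had log2 changes of 2.78, 2.34, 1.37 and 1.57 and were still called.

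Of the 25 risers at least 4 times higher in TRAP by the 6-month controls, 23 had no overlap between groups and 16 were called without libraries 4 and 5. Over all 685 called genes, 541 had no overlap and 319 were called again without these libraries. Some were chosen after their values were seen. The endoribonuclease Endou was 10.6 times higher in TRAP than in kidney and stood at 94.3, 112, 58.5, 83.7 and 80.8 CPM in the diabetic libraries, against 21.6, 14.2, 22.7, 20.2 and 16.0 CPM in the controls. The secreted matrix protein Adamtsl5 stood at 41.5, 37.7, 40.9, 27.0 and 38.3 CPM in the diabetic libraries, against 10.3, 6.13, 7.68, 4.18 and 7.56 CPM in the controls. Both genes were higher in every diabetic library than in any control, with log2 changes of 2.18 (SE 0.42, adjusted p = 0.00637) and 2.37 (SE 0.26, adjusted p = 1.72e-05). Rises were also called for Mustn1, a small nuclear protein known from muscle (2.63), the matrix protein Adamtsl4 (1.69), Rab7b, a small GTPase of late endosomes (1.70), Akap6, an anchor of protein kinase A (1.52), and Sspn, sarcospan of the dystrophin complex (0.87). Each of these 5 was called without libraries 4 and 5. Epha6, a receptor for ephrins that was 47.6 times higher in TRAP than in kidney, stood at 57.9, 42.3, 29.5, 67.3 and 67.5 CPM in the diabetic libraries, against 19.8, 16.4, 22.3, 13.9 and 12.1 CPM in the controls. Its groups did not overlap and its log2 change was 1.65 (SE 0.34, adjusted p = 0.00983), but it was not called without libraries 4 and 5, at 1.35 (adjusted p = 0.0768). Aldh1a2, an enzyme of retinoic acid synthesis (1.43, and 1.57 (adjusted p = 0.0787) without), Axl, a receptor tyrosine kinase (0.63, and 0.54 (adjusted p = 0.0927) without) and Ankrd1, a target of the YAP pathway (1.40, and 0.92 (adjusted p = 0.0842) without), were likewise not called without them. The change of Aldh1a2 was no smaller without these libraries, and that of Axl was close to its value with them. Aldh1a2 lost its call in 9 of the 10 fits that each left out 1 library of 3 months (adjusted p up to 0.105), and Axl in 1, without control 4 (adjusted p = 0.0568).

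Igfbp2, which binds insulin-like growth factors, stood at 10.5, 5.83, 7.29, 76.2 and 25.7 CPM in the diabetic libraries, against 3.41, 3.11, 4.88, 4.23 and 4.21 CPM in the controls. The groups did not overlap, but library 4 was far above the others. The log2 change was 2.67 (SE 0.68, adjusted p = 0.0367), and 0.99 (adjusted p = 0.343) without libraries 4 and 5. The call was lost in 7 of the 10 such leave-one-out fits, with adjusted p up to 0.107.

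Ugt1a2 and C3 are higher in TRAP than in kidney when the diabetic libraries are counted, and no higher by the 6-month controls (0.959 and 0.904 times). Ugt1a2, which joins glucuronic acid to lipophilic compounds, stood at 11.4, 38.5, 25.2, 15.3 and 7.75 CPM in the diabetic libraries, against 0.115, 0.208, 0.560, 0.0845 and 0.254 CPM in the controls. The groups lay far apart, with 148 to 1012 counts in diabetic and 2 to 11 counts in control libraries. That gave a log2 change of 6.36 (SE 0.71, adjusted p = 3.16e-05). Genes of the Ugt1a family share their last exons, so reads of other members may be counted in it. C3, the central complement protein, stood at 209, 152, 109, 683 and 464 CPM in the diabetic libraries, against 22.6, 20.4, 26.5, 30.3 and 33.2 CPM in the controls. It was higher in every diabetic library than in any control, with libraries 4 and 5 above the other diabetic libraries. The log2 change was 3.61, and 2.56 (adjusted p = 2.38e-05) without libraries 4 and 5.

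Among podocyte-enriched genes that fell, Mgat5b (chromosome 11, 116918863 to 116986948), a glycosyltransferase that branches glycans, changed most. By the 6-month controls it was 54.2 times higher in TRAP than in kidney. It stood at 20.1, 19.6, 21.7, 21.4 and 15.1 CPM in the diabetic libraries, against 154, 157, 80.2, 82.7 and 83.9 CPM in the controls. The diabetic libraries formed a narrow band below all controls, with a log2 change of -2.51 (SE 0.39, adjusted p = 0.00105). H2-Q6 (chromosome 17, 35424850 to 35430055), a class I antigen of the Qa type, stood at 240.1, 362, 361, 194 and 114 CPM in the diabetic libraries, against 985, 1248, 1174, 584 and 940.3 CPM in the controls. Its groups did not overlap either, and its log2 change was -1.96 (SE 0.28, adjusted p = 0.000274). Reads of its close relatives H2-Q5 and H2-Q7 may be split among them. H2-Q7 had a log2 change of -1.11 (SE 0.25, adjusted p = 0.0156), and -0.79 (adjusted p = 0.0772) without libraries 4 and 5.

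Genes of other functions fell as well. Npr1, the guanylyl cyclase receptor of atrial natriuretic peptide, stood at 102, 127, 109, 88.1 and 77.7 CPM in the diabetic libraries, against 318, 287, 230.3, 175 and 187 CPM in the controls. No diabetic library reached the lowest control, and the log2 change was -1.25 (SE 0.19, adjusted p = 0.000458). Astn2, a relative of the neuronal protein astrotactin, fell, with a log2 change of -1.55 (SE 0.27, adjusted p = 0.002), and stood at 34.7 ± 14.5 CPM in diabetic and 102 ± 28.7 CPM in control libraries (SD, n = 5 each). It overlaps Trim32 on the other strand, whose reads may be counted in it. Ggt5, which cleaves the glutamyl bond of leukotriene C4, fell, with a log2 change of -1.34 (SE 0.25, adjusted p = 0.00267), and Aifm3, a relative of apoptosis-inducing factor, with -1.73 (SE 0.24, adjusted p = 0.000178). Npr1, Astn2, Ggt5 and Aifm3 were called without libraries 4 and 5, with log2 changes of -1.09, -1.22, -1.34 and -1.58.

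Further fallers were not called without libraries 4 and 5. Kcnj12, an inward-rectifier potassium channel, had -1.61 (SE 0.37, adjusted p = 0.0164), and -1.54 (adjusted p = 0.08) without. Mafa, a transcription factor known from pancreatic beta cells, had -1.30 (SE 0.29, adjusted p = 0.0139), and -1.07 (adjusted p = 0.0859) without, and both kept their call in each fit that left out 1 library of 3 months. Hpca, a neuronal calcium sensor, had -1.42 (SE 0.38, adjusted p = 0.0403), and -1.21 (adjusted p = 0.172) without, and its call was lost in 8 of the 10 leave-one-out fits (adjusted p up to 0.124). All 3 had no overlap between the groups. Of the 38 fallers at least 4 times higher in TRAP by the 6-month controls, 31 had no overlap and 16 were called without libraries 4 and 5. These counts stand beside 541 and 319 of all 685 called genes. Among these 16, chosen after their values were seen, were Itpr3, a calcium channel of the endoplasmic reticulum (-1.17), Wnt4, a signal of nephron formation (-1.06), Dock5, an activator of the small GTPase Rac (-1.03), and Il6ra, the interleukin 6 receptor (-0.70).

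**Figure D2:**
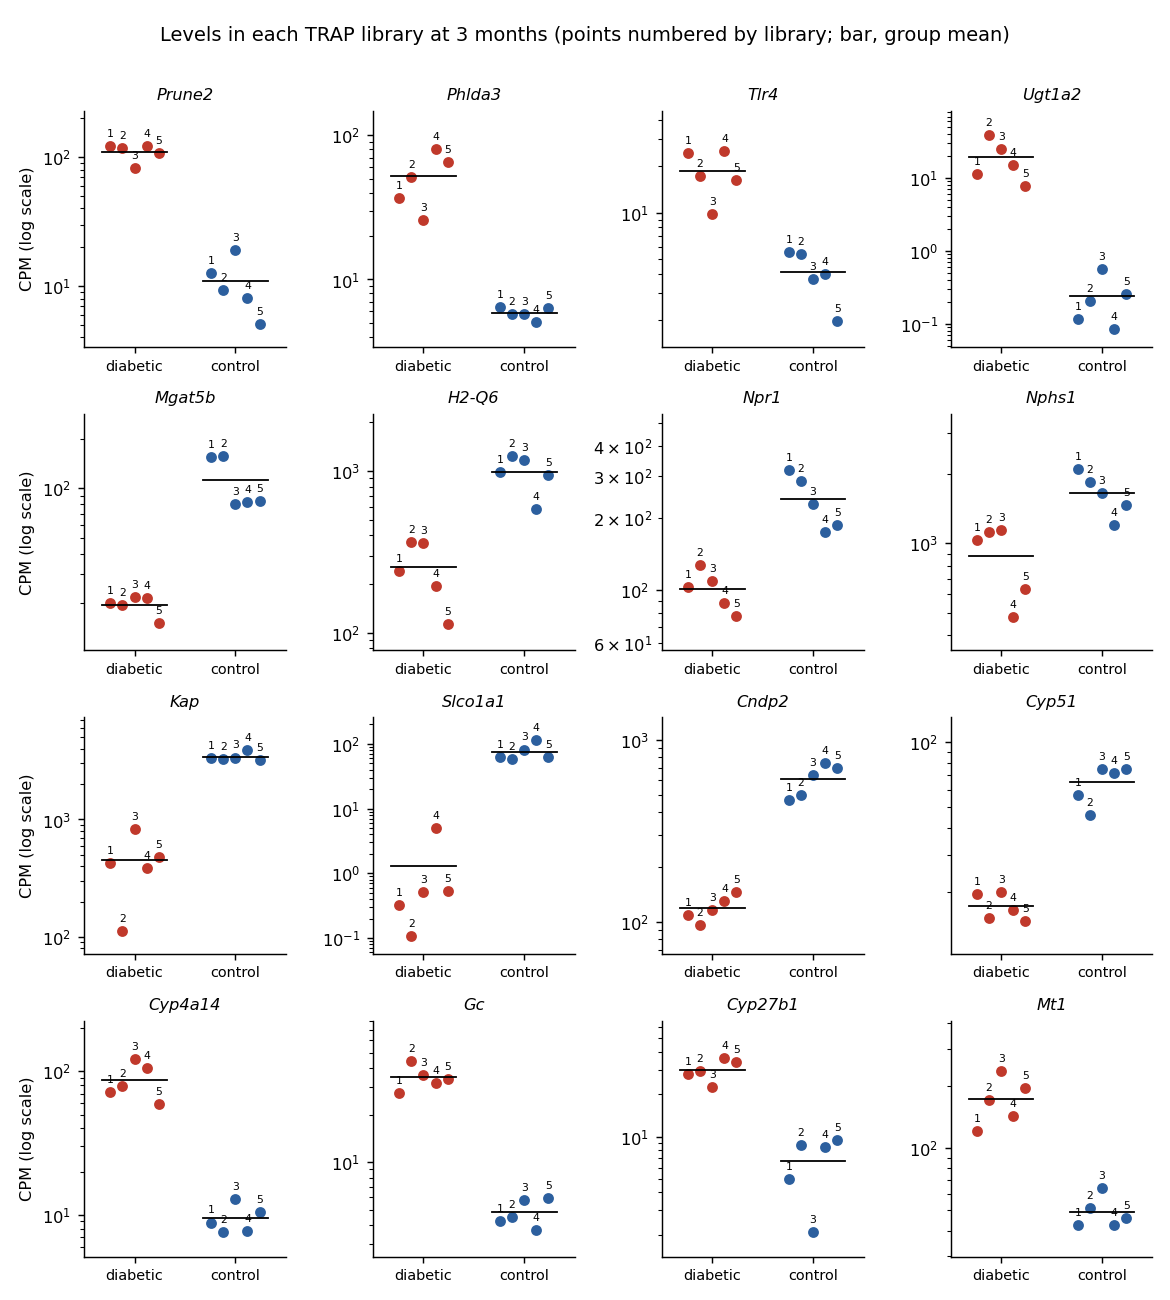
CPM on a log scale in each of the 5 diabetic (red) and 5 control (blue) libraries for 16 named genes, numbered by library, with a bar at the group mean. In 15 of the 16 panels, all but Nphs1, the gene is called, and in none of the 16 do the groups overlap.

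Among 44 podocyte identity genes there were 3 fallers and no riser, and the median was -0.36, beside 0.0358 over all genes. The log2 change was positive in 10 of the 44, beside 9270 of all 17180 genes. DESeq2 called 7 lower and 1 higher, limma 2 lower, and 12 had an unadjusted p under 0.05, beside 16.2% of all genes. The 3 called by edgeR were Itga3, the integrin that holds podocytes to laminin (-0.71 (SE 0.14, adjusted p = 0.00611)), Col4a4, a collagen IV chain of the basement membrane (-0.74 (SE 0.17, adjusted p = 0.0148)), and Kirrel, a partner of nephrin in the slit diaphragm (-0.59 (SE 0.15, adjusted p = 0.0331)). None of the 3 was called without libraries 4 and 5, with log2 changes of -0.60, -0.61 and -0.51 (adjusted p = 0.0561, 0.105 and 0.155), and the list's median was then -0.133, with 1 member higher. Kirrel lost its call in 7 of the 10 leave-one-out fits (adjusted p up to 0.0848), and Col4a4 in the fit without control 1 (adjusted p = 0.0501).

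Nphs1, which encodes nephrin, stood at 1029.9, 1124, 1139.9, 481 and 635 CPM in the diabetic libraries, against 2108, 1842, 1649, 1199 and 1468 CPM in the controls. Its groups did not overlap, which held for 6.66% of all genes, and the lowest values were those of diabetic libraries 4 and 5. Its log2 change of -0.91 (SE 0.30, adjusted p = 0.106) was not called, and it was -0.59 without them. The surface sialomucin Podxl (-0.47, adjusted p = 0.522), the actin regulator Synpo (-0.34, adjusted p = 0.664) and the transcription factor Wt1 (-0.34, adjusted p = 0.714) had overlapping groups and were not called. For Wt1 the log2 change without libraries 4 and 5 was 0.03. The summed level of the 44 genes was 30410 to 55610 CPM in diabetic and 47220 to 70860 CPM in control libraries, and libraries 4 and 5 gave the lowest sums.

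In the slit diaphragm and polarity list 3 of 21 genes were called, beside 3.99% of all genes, and the median was -0.0351. Iqgap1, a scaffold that ties junctions to actin, rose (0.87 (SE 0.17, adjusted p = 0.0038)) and Kirrel and the cadherin Fat1 fell (-0.65 for Fat1). Iqgap1 was called without libraries 4 and 5 at 0.74, while Fat1 lost its call in 8 of the 10 leave-one-out fits (adjusted p up to 0.11). Of 25 genes of the basement membrane and its receptors, 3 fell and the median was 0.0161. DESeq2 called 5 genes of the slit diaphragm list (2 higher and 3 lower) and 4 of the basement membrane list (all lower). Beside Itga3 and Col4a4, edgeR called Col18a1, the source of endostatin (-0.92 (SE 0.19, adjusted p = 0.00722)), which was called without libraries 4 and 5 at -0.90. Of 19 podocyte transcription factors none was called by edgeR, DESeq2 or limma, and the median was -0.0723. In 2 of the 19 the unadjusted p was under 0.05, beside 16.2% of all genes.

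Actin and focal adhesion genes had 5 risers of 36 and no faller, with a median of 0.256. Msn, which links actin to the membrane (0.76), Cfl1, which severs actin filaments (0.62), Zyx, a focal adhesion protein (0.72), and Ankrd1 (1.40) were among them. Cfl1 lost its call in 4 of the 10 leave-one-out fits (adjusted p up to 0.0872) and Msn in 1, without control 4 (adjusted p = 0.0567). None of the 36 was called by edgeR without libraries 4 and 5, and the median was then 0.212. With all libraries DESeq2 called 14 and limma 5.

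The largest falls were in genes lower in TRAP than in kidney, many of them androgen-dependent genes of the male kidney. Of 24 genes of this list 17 fell, none rose, and the median log2 change was -1.52. In 18 the groups did not overlap, beside 6.66% of all genes. Summed over the list, diabetic libraries held 1553 to 2751 CPM, against 6899 to 9286 CPM in the controls. Kap makes up much of these sums. The other 23 genes summed to 1269 to 1919 CPM in diabetic and 3641 to 5409 CPM in control libraries. Their median was -1.51. Without libraries 4 and 5, 15 fell and the median was -1.6. DESeq2 called 17 lower and 1 higher, and limma 15 lower. Only 1 of the 24 genes was higher in TRAP than in kidney. In a list of 20 genes described as higher in the female kidney 4 rose and 5 fell, with a median of -0.109. In 10 of the 20 the groups did not overlap, again beside 6.66% of all genes. DESeq2 and limma gave the same counts, and without libraries 4 and 5 3 rose and 5 fell. Abcc3, an export pump for conjugated compounds, rose by 1.80 (SE 0.24, adjusted p = 0.000133). Cyp4a14 is among the other risers, and Slc22a7 and Cyp7b1 are among its fallers. Summed, it held 500 to 957.2 CPM in diabetic and 588.8 to 866.8 CPM in control libraries.

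Kap (chromosome 6, 133849851 to 133853762), which encodes a kidney protein induced by androgen, stood at 427, 112, 837, 386 and 483 CPM in the diabetic libraries, against 3343, 3258, 3372, 3877 and 3194 CPM in the controls. The diabetic values spread widely, from library 2 at the bottom to library 3 at the top, and all lay far below the controls. Its log2 change was -2.92 (SE 0.38, adjusted p = 0.000102). Slco1a1 (chromosome 6, 141907282 to 141946962), an organic anion transporter, stood at 0.319, 0.106, 0.523, 4.93 and 0.524 CPM in the diabetic libraries, against 63.4, 57.9, 81.7, 113 and 62.5 CPM in the controls. The diabetic libraries held 2 to 148 counts of it and the controls 1233 to 2673, with library 4 above the other diabetic libraries. Its log2 change was -5.78 (SE 0.71, adjusted p = 0.00014), and -7.71 without libraries 4 and 5. Cndp2, a dipeptidase, stood at 109, 96.1, 115, 130.3 and 145 CPM in the diabetic libraries, against 467, 496, 643, 749 and 699 CPM in the controls, with a log2 change of -2.36 (SE 0.17, adjusted p = 3.36e-07). Both groups were narrow and far apart. Slc7a13, a transporter of aspartate and glutamate, fell, with a log2 change of -2.72 (SE 0.25, adjusted p = 3.98e-06), the acyl-CoA synthetase Acsm3 with -2.99 (SE 0.30, adjusted p = 1.42e-05), and Odc1, which begins polyamine synthesis, with -1.43 (SE 0.15, adjusted p = 1.42e-05). Acsm3 overlaps Eri2 on the other strand, whose reads may be counted in it.

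Genes outside the androgen-dependent list fell too. Slc22a7, an organic anion transporter, stood at 1.47, 0.212, 1.64, 3.43 and 0.838 CPM in the diabetic libraries, against 33.1, 29.8, 60.3, 56.8 and 61.2 CPM in the controls, with a log2 change of -4.93 (SE 0.48, adjusted p = 1.12e-05). The oxysterol hydroxylase Cyp7b1 fell, with a log2 change of -3.49 (SE 0.37, adjusted p = 1.51e-05), the hydroxysteroid dehydrogenase Akr1c14 with -3.38 (SE 0.43, adjusted p = 0.000106), the lipoxygenase Alox15 with -3.28 (SE 0.47, adjusted p = 0.000259), and the gene model Gm853 with -2.97 (SE 0.51, adjusted p = 0.00194). None of these 5 had overlapping groups, and each was called without libraries 4 and 5.

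Of 30 proximal tubule markers 9 fell and none rose, with a median of -0.39, and their summed level was 6702 to 15600 CPM in diabetic and 16250 to 23910 CPM in control libraries. The 7 markers that are also in the androgen list all fell, with a median of -2.19. Of the other 23 markers 2 fell, with a median of -0.171 and sums of 5769 to 13940 CPM in diabetic and 11090 to 17200 CPM in control libraries. The level of tubule markers thus moved with the groups, and its part in the falls was not tested. The 7 and 17 fallers are not separate evidence, since the lists share genes.

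Of the 107 risers lower in TRAP, the naming rule took genes with at least 10 CPM and no overlap. Larger changes than theirs, up to 5.07 on the log2 scale, were in genes that the rule left out. Cyp4a14, a hydroxylase of fatty acids, stood at 71.5, 78.7, 123, 105 and 59.5 CPM in the diabetic libraries, against 8.84, 7.61, 12.9, 7.73 and 10.5 CPM in the controls. Gc, the vitamin D-binding protein, stood at 27.9, 44.2, 36.1, 32.3 and 33.8 CPM in the diabetic libraries, against 4.25, 4.50, 5.75, 3.68 and 5.88 CPM in the controls. Neither gene had overlapping groups, and the log2 changes were 3.20 (SE 0.34, adjusted p = 2.3e-05) and 2.86 (SE 0.26, adjusted p = 3.98e-06). Fgg, the gamma chain of fibrinogen, rose by 3.36 (SE 0.39, adjusted p = 3.6e-05), the kynurenine pathway enzyme Kynu by 2.28 (SE 0.32, adjusted p = 0.000231), and the chloride channel regulator Clca3a1 by 2.44 (SE 0.40, adjusted p = 0.00119). Without libraries 4 and 5 these 5 genes were called with log2 changes of 3.26, 2.91, 2.52, 2.38 and 1.97. Reads of Cyp4a14 may be shared with other Cyp4a genes.

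The metallothioneins Mt1 and Mt2, small proteins that bind zinc and copper, rose in every diabetic library. Mt1 (chromosome 8, 94179089 to 94180325) stood at 121, 170.0, 236, 143 and 196 CPM in the diabetic libraries, against 42.5, 51.3, 64.1, 42.3 and 45.8 CPM in the controls. Mt2 (chromosome 8, 94172618 to 94173567) stood at 32.1, 39.2, 37.8, 62.0 and 68.1 CPM in the diabetic libraries, against 7.96, 12.9, 17.1, 8.83 and 11.9 CPM in the controls. Neither gene had overlapping groups. The log2 changes were 1.82 (SE 0.17, adjusted p = 3.98e-06) for Mt1 and 2.03 (SE 0.23, adjusted p = 2.57e-05) for Mt2, and 1.84 and 1.63 without libraries 4 and 5. The 2 genes are close in sequence and may share reads. Metallothioneins are known to be switched on by metals through metal response elements with the core TGCNCNC, and by glucocorticoids. The 300 bases at each gene's annotated start are shown because both genes moved together (RefSeq, GRCm38.p6, plus strand, chr8:94178839-94179138 for Mt1 and chr8:94172368-94172667 for Mt2), with each match to the core on either strand in capitals.
Mt1 promoter: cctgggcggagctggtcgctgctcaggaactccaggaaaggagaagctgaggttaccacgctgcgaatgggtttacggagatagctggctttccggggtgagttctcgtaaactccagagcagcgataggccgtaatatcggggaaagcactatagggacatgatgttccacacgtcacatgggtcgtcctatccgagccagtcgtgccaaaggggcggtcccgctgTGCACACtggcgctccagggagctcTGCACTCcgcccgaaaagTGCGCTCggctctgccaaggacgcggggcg
Mt2 promoter: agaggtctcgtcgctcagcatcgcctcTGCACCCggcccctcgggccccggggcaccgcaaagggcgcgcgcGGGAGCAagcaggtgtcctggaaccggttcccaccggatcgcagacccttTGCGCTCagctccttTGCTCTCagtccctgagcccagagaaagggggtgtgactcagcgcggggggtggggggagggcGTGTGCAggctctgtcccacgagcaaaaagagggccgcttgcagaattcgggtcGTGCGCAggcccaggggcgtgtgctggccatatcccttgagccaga
Mt1 held 3 matches and Mt2 held 6. At least 3 were held by 7.1% and at least 6 by 0.225% of 32851 promoters of this length, while 51.0% held at least 1. The downstream end of the Mt2 window was not found in a GENCODE transcript, so the place of its start is uncertain. The matches describe these letters only.

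In the list of metallothionein and NRF2 antioxidant genes 5 of 24 rose and 1 fell, with a median of 0.0933. Gsta2, a glutathione transferase, rose by 2.44 (SE 0.19, adjusted p = 3.59e-07). Its relative Gsta1, with 21 to 89 counts in diabetic and 0 to 5 in control libraries, rose by 3.63 (SE 0.79, adjusted p = 0.0109), and the pair may share reads. The other riser and the faller, chosen after their values were seen, were fragile: Srxn1, a sulfiredoxin (0.39, adjusted p = 0.0444), and Gclm, a subunit of the enzyme that begins glutathione synthesis (-0.59, adjusted p = 0.0299). They lost their calls in 9 of the 10 and 6 of the 10 leave-one-out fits (adjusted p up to 0.116 and 0.0927). Without libraries 4 and 5, 4 genes of the list rose and none fell.

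Genes of injured tubule and of inflammation rose, in part in all diabetic libraries and in part in libraries 4 and 5. Of 26 tubular injury markers 11 rose and none fell, with a median of 0.89, and 6 rose without libraries 4 and 5, with a median of 0.829. Summed, they held 4136 to 6492 CPM in diabetic and 2351 to 3492 CPM in control libraries. Spp1, which encodes osteopontin, stood at 394, 337, 271, 1048 and 579.7 CPM in the diabetic libraries, against 83.8, 79.9, 85.4, 70.1 and 95.8 CPM in the controls. All diabetic libraries lay above the controls, and the log2 change was 2.66 (SE 0.29, adjusted p = 1.87e-05). Clu, a secreted chaperone, rose by 1.40 (SE 0.18, adjusted p = 0.000101) and the galectin Lgals3 by 1.96 (SE 0.32, adjusted p = 0.00142), both also called without libraries 4 and 5. S100a6, a calcium-binding protein, stood at 29.8, 36.8, 14.4, 226 and 56.2 CPM in the diabetic libraries, against 3.86, 5.78, 6.46, 5.62 and 7.81 CPM in the controls. Library 4 was far above the rest, yet no diabetic library overlapped the controls, with a log2 change of 3.62 (SE 0.64, adjusted p = 0.00344), and 2.19 (adjusted p = 0.00457) without libraries 4 and 5. Chosen after their values were seen, the injury receptor Havcr1 stood at 10.3, 6.73, 1.92, 79.4 and 36.7 CPM in the diabetic libraries, against 1.49, 1.80, 1.42, 2.41 and 2.54 CPM in the controls, and Lcn2, which binds bacterial siderophores, at 4.34, 4.03, 0.772, 31.9 and 13.7 CPM in the diabetic libraries, against 0.689, 0.208, 0.661, 1.01 and 0.710 CPM in the controls. Both were highest in library 4, their groups overlapped, and both were called with (3.81 and 4.07) and without libraries 4 and 5 (1.68 (adjusted p = 0.0425) and 2.19 (adjusted p = 0.0299)). Of the 15 injury markers higher in TRAP 5 rose, and of the 11 lower in TRAP 6 rose.

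Of 28 chemokine, cytokine and adhesion genes 8 rose and none fell, with a median of 1.32. Without libraries 4 and 5, 6 rose, with a median of 0.38. Cxcl1, a chemokine for neutrophils, stood at 3.19, 3.07, 2.81, 16.4 and 11.6 CPM in the diabetic libraries, against 1.34, 1.04, 1.48, 0.592 and 0.761 CPM in the controls. The groups did not overlap, libraries 4 and 5 were highest, and the log2 change was 2.83 (SE 0.48, adjusted p = 0.0014), and 1.53 (adjusted p = 0.0191) without them. Il33, an alarmin of the interleukin 1 family, rose by 2.17 (SE 0.38, adjusted p = 0.00179), and 1.46 (adjusted p = 0.0285) without them. In the complement list 2 of 20 rose, with a median of 0.938, C3 and Cfi, a protease that cleaves C3b. Cfi lost its call in 6 of the 10 leave-one-out fits (adjusted p up to 0.224), and was 0.97 (adjusted p = 0.381) without libraries 4 and 5. Of 35 interferon and antigen presentation genes 3 fell, H2-Q6 and H2-Q7 among them.

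Of the 18 macrophage and dendritic cell markers, whose summed level set libraries 4 and 5 apart, none was called by edgeR or limma and 5 were called higher by DESeq2. An unadjusted p under 0.05 was found in 9 of them, beside 16.2% of all genes. Their median log2 change was 1.26, and -0.289 without libraries 4 and 5. Without libraries 4 and 5 their summed level was 57.2 to 71.5 CPM in diabetic and 73.2 to 105 CPM in control libraries. Their part in the rise of the inflammatory genes was not tested.

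Many growth factor, matrix and early-response genes were not called without libraries 4 and 5. In the TGF-beta and fibrosis list 6 of 31 rose, with a median of 0.664, against none higher, 1 lower and a median of 0.00558 without them. Tgfb1, the main fibrogenic cytokine, had 1.09 (SE 0.24, adjusted p = 0.0115), and 0.44 (adjusted p = 0.116) without. Tgfb2 stood at 10.7, 6.04, 5.55, 32.0 and 14.5 CPM in the diabetic libraries, against 5.13, 2.01, 4.02, 2.92 and 2.74 CPM in the controls. Its groups did not overlap, and its log2 change was 2.04, adjusted p = 0.0129, and 1.14 (adjusted p = 0.137) without. Timp1, an inhibitor of matrix proteases, stood at 1.28, 1.96, 1.02, 16.1 and 4.35 CPM in the diabetic libraries, against 0.153, 0.381, 0.763, 0.423 and 0 CPM in the controls, with the highest value in library 4. Its log2 change was 3.84, and its call was lost without diabetic library 4 (adjusted p = 0.0652). Inhba, a subunit of activin, had 3.75, adjusted p = 0.0153, and 3.05 (adjusted p = 0.0878) without libraries 4 and 5.

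Markers of mesangial and smooth muscle cells rose in 3 of 15 cases, with a median of 0.624, and in none without libraries 4 and 5. They were the actin-binding Tagln (2.51, and 1.60 (adjusted p = 0.0901) without), smooth muscle actin Acta2 (1.71, and 0.92 (adjusted p = 0.241) without) and the protease inhibitor Serpine2 (1.53, and 0.92 (adjusted p = 0.127) without). Their summed level was 395, 340.2, 322, 989.6 and 710.2 CPM in diabetic libraries 1 to 5, against 223 to 285 CPM in the controls, so that all diabetic libraries lay above them, and libraries 4 and 5 highest. Acta2 lost its call in 7 of the 10 leave-one-out fits (adjusted p up to 0.0923). Of 13 fibroblast and matrix markers 1 rose, fibronectin Fn1 (1.90, adjusted p = 0.0448, and 0.46 (adjusted p = 0.496) without), and the median was 0.924, and 0.0593 without libraries 4 and 5. Fn1 lost its call in 7 of the 10 leave-one-out fits (adjusted p up to 0.136). Among 10 parietal epithelial markers 2 rose, the hyaluronan receptor Cd44 (2.35, adjusted p = 0.0225, and 0.67 (adjusted p = 0.295) without) and Wfdc2 (1.11, adjusted p = 0.0178, and 0.70 (adjusted p = 0.172) without), and none without libraries 4 and 5. Cd44 lost its call in 5 of the 10 leave-one-out fits and Wfdc2 in 2 of the 10 (adjusted p up to 0.065 and 0.0567). Of 19 endothelial markers 1 fell, the VEGF receptor Kdr (-0.68, adjusted p = 0.0251, and -0.83 (adjusted p = 0.0181) without), with its call lost in 5 of the 10 leave-one-out fits (adjusted p up to 0.0834). The log2 change was positive in 9 of the 19 endothelial markers, with a median of -0.039, and -0.239 without libraries 4 and 5. Summed, they held 594.2 to 860.4 CPM in diabetic and 895 to 1219 CPM in control libraries, so all diabetic libraries lay below the controls. Of 16 loop and distal nephron markers 1 was called lower by DESeq2, none by edgeR or limma. Before adjustment 2 of them passed 0.05, beside 16.2% of all genes. Of 7 lymphocyte and 2 neutrophil markers edgeR, DESeq2 and limma called none, and 1 had an unadjusted p under 0.05. What these cells contributed to the changes in matrix genes was not tested.

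Of 25 immediate-early genes 6 rose and none fell, with a median of 0.639, and 3 rose without libraries 4 and 5, with a median of 0.0862. Klf4 (2.09), Maff (1.49, 0.96 (adjusted p = 0.0441) without) and the growth regulator Myc (1.61, 0.90 (adjusted p = 0.0482) without) were called both ways. Egr3 had 2.20, adjusted p = 0.0107, and 1.46 (adjusted p = 0.131) without. Of 25 p53 targets 3 rose, with a median of 0.284. Phlda3 was called both ways. The cell cycle inhibitor Cdkn1a (2.34, adjusted p = 0.0232, and 0.79 (adjusted p = 0.253) without) and the cell death gene Pmaip1 (1.00, adjusted p = 0.0389, and 0.43 (adjusted p = 0.368) without) were not, and lost their calls in 5 of the 10 and 6 of the 10 leave-one-out fits (adjusted p up to 0.0713 and 0.147). No gene of 25 in the cell cycle list was called by edgeR or limma. DESeq2 called 4 higher. The log2 change was positive in all 25, beside 9270 of all 17180 genes, with a median of 0.874 (0.366 without libraries 4 and 5). Before adjustment 12 passed 0.05, beside 16.2% of all genes.

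**Figure D3:**
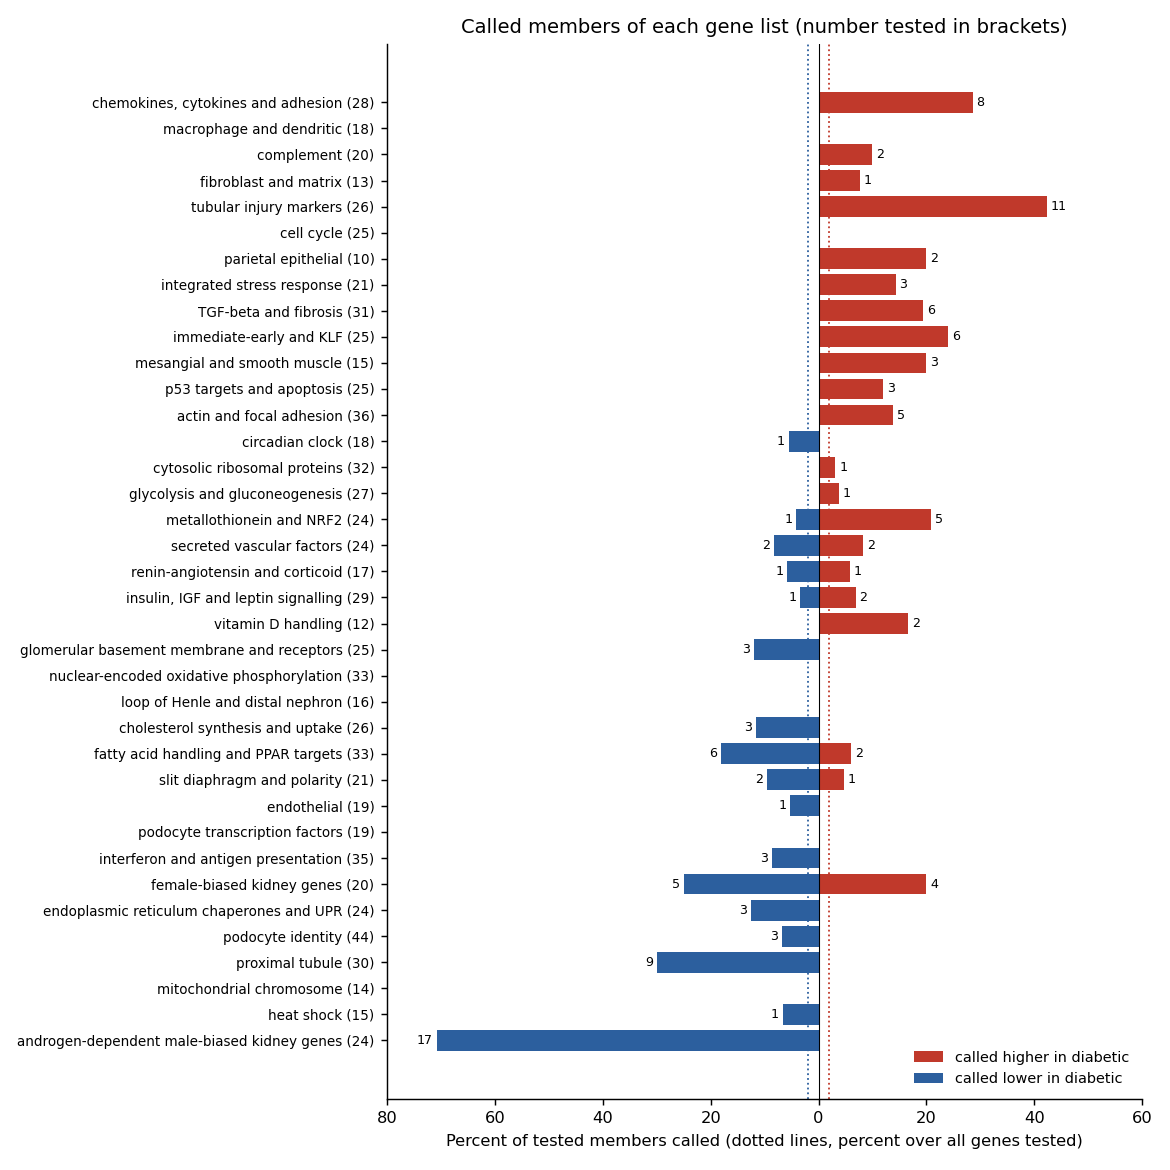
Percent of each list's tested genes called higher (red, to the right) or lower (blue, to the left) in diabetic libraries at 3 months, with the number called at each bar and the number tested in brackets. Dotted lines give the percent over all genes, 2.03% higher and 1.96% lower. The longest bars are the androgen-dependent list on the lower side (17 of 24) and the tubular injury markers on the higher side (11 of 26).

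**Figure D4:**
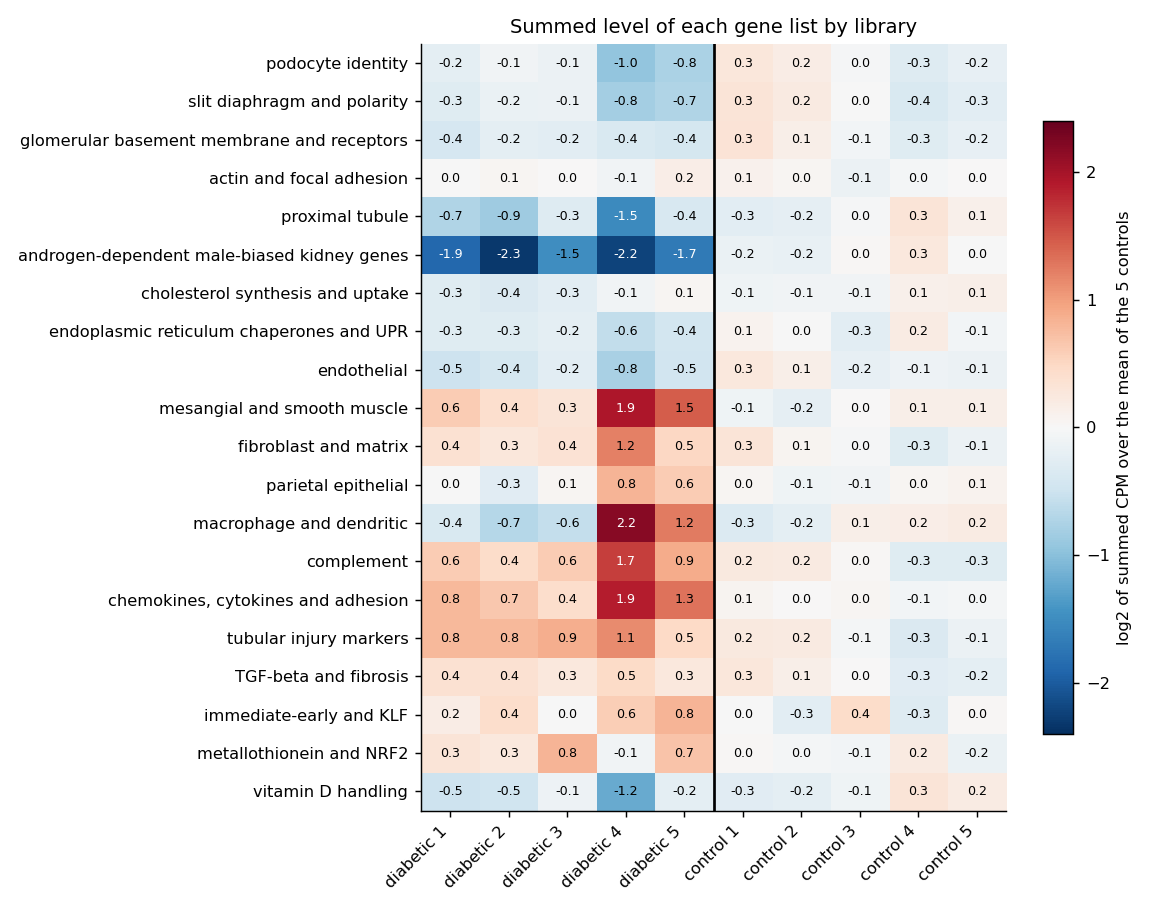
Summed CPM of the gene lists named at the left in each of the 10 libraries, as log2 over the mean of the 5 controls (colour and printed value). The androgen-dependent list is low in all 5 diabetic libraries, while the macrophage and dendritic list is high in diabetic libraries 4 and 5, at 416 and 218 CPM.

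Metabolic genes moved both ways. In the list of fatty acid handling and PPAR targets 2 of 33 rose and 6 fell, with a median of -0.0335. Only 4 of the 33 were higher in TRAP than in kidney. Which cells the changes of such genes came from was not tested. Cd36, a fatty acid transporter, stood at 13.4, 3.82, 15.4, 16.3 and 13.7 CPM in the diabetic libraries, against 52.0, 55.6, 79.8, 91.7 and 77.0 CPM in the controls. No diabetic library reached the controls, and the log2 change was -2.50 (SE 0.30, adjusted p = 5.12e-05). Ehhadh, of peroxisomal fatty acid oxidation, fell, with a log2 change of -1.19 (SE 0.16, adjusted p = 0.000178) and Bdh1, which interconverts ketone bodies, with -1.17 (SE 0.22, adjusted p = 0.00336). Over the 10 libraries Cd36 and Bdh1 stood at 0.182 and 0.335 times the kidney level. Cd36, Ehhadh and Bdh1 were called without libraries 4 and 5, when 3 genes of the list rose and 4 fell. Of 26 genes of cholesterol synthesis and uptake 3 fell, with a median of -0.0292. Among the 26, 7 were higher in TRAP than in kidney. The sterol demethylase Cyp51 stood at 19.6, 15.3, 20.1, 16.6 and 14.7 CPM in the diabetic libraries, against 56.7, 45.9, 74.9, 71.9 and 75.0 CPM in the controls, without overlap, and its log2 change was -1.91 (SE 0.18, adjusted p = 5.33e-06). It overlaps Akap9 on the other strand, whose reads may be counted in it and which was also called lower (-0.66, adjusted p = 0.0198). The isomerase Idi1 had -0.97, adjusted p = 0.0258 but was not called without libraries 4 and 5, at -0.87 (adjusted p = 0.123), or in 7 of the 10 leave-one-out fits.

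Of 24 endoplasmic reticulum chaperones and unfolded protein genes 3 fell and none rose, with a median of -0.353. They were Hyou1 (-0.58, adjusted p = 0.0239), Dnajb11 (-0.52, adjusted p = 0.0351) and the ubiquitin ligase Syvn1 (-0.66, adjusted p = 0.0478). None was called without libraries 4 and 5, with log2 changes of -0.50, -0.45 and -0.56 (adjusted p = 0.123, 0.149 and 0.214), and the median was then -0.275. Their calls were lost in 4 of the 10, 6 of the 10 and 8 of the 10 leave-one-out fits (adjusted p up to 0.079, 0.123 and 0.165). Of 15 heat shock genes the mitochondrial chaperonin Hspd1 fell (-0.70, adjusted p = 0.0178, and -0.69 (adjusted p = 0.0605) without libraries 4 and 5). Its call was lost in 4 of the 10 leave-one-out fits (adjusted p up to 0.0663). The median of the 15 was -0.579, and -0.367 without libraries 4 and 5, and the log2 change was positive in 3. DESeq2 called 3 lower and limma none. Before adjustment 6 passed 0.05, beside 16.2% of all genes. In the integrated stress response list 3 of 21 rose and the median was 0.708, but none was called without libraries 4 and 5. The 3 were Phgdh, the first enzyme of serine synthesis (1.36, adjusted p = 0.00341, and 0.83 (adjusted p = 0.0583) without), the amino acid transporter Slc7a5 (1.83, adjusted p = 0.0458, and 0.71 (adjusted p = 0.475) without) and Chac1, which degrades glutathione (1.96, adjusted p = 0.0205, and 1.61 (adjusted p = 0.147) without). Slc7a5 and Chac1 lost their calls in 7 of the 10 and 3 of the 10 leave-one-out fits (adjusted p up to 0.231 and 0.0657).

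In hormone and nutrient pathways single genes were called. Of 29 insulin, IGF and leptin signalling genes Igfbp2 and Socs2, an inhibitor of growth hormone signalling, rose and the kinase Mtor fell (-0.71, adjusted p = 0.0357, with the call lost in 7 of the 10 leave-one-out fits, adjusted p up to 0.112). Socs2 had a log2 change of 0.82 (SE 0.18, adjusted p = 0.0104), and 0.85 (adjusted p = 0.0311) without libraries 4 and 5. Lepr, the gene that carries the db mutation, stood at 2.04, 1.54, 1.69, 2.46 and 1.15 CPM in the diabetic libraries, against 1.38, 2.32, 2.75, 1.61 and 3.55 CPM in the controls. The groups overlapped and its log2 change of -0.38, adjusted p = 0.668 was not called. In the renin-angiotensin and corticoid list Sgk1, a kinase induced by aldosterone, rose by 1.36 (SE 0.21, adjusted p = 0.000517) and Ace, which converts angiotensin, fell, with a log2 change of -1.50 (SE 0.18, adjusted p = 5.12e-05). Among the 17 genes of this list 5 were higher in TRAP than in kidney, and Ace stood at 0.285 times the kidney level. Of 12 vitamin D genes 2 rose, Gc and Cyp27b1, which makes the active hormone. Only 2 of the 12 were higher in TRAP than in kidney. Cyp27b1 stood at 27.7, 29.2, 22.7, 36.3 and 34.2 CPM in the diabetic libraries, against 4.97, 8.65, 2.09, 8.41 and 9.44 CPM in the controls, without overlap, and its log2 change was 2.16 (SE 0.34, adjusted p = 0.000792). The list of 24 secreted vascular factors also holds receptors. In it 2 rose, Pdgfa and the receptor Epha6, and 2 fell, the receptor Npr1 and Fgf1, a fibroblast growth factor (-1.08 (SE 0.17, adjusted p = 0.000792)). Sgk1, Ace, Cyp27b1 and Fgf1 were called without libraries 4 and 5. Among 18 clock genes, 27 genes of glycolysis and gluconeogenesis and 32 cytosolic ribosomal protein genes 1 each was called. Over all genes 3.99% were called, so these counts are near that share. These were the circadian repressor Nr1d1 (-0.98, adjusted p = 0.0309), the pyruvate dehydrogenase kinase Pdk1 (0.68, adjusted p = 0.0171) and Rplp1 (0.73, adjusted p = 0.0372), and they lost their calls in 7 of the 10, 4 of the 10 and 6 of the 10 leave-one-out fits (adjusted p up to 0.0842, 0.0557 and 0.11). Nr1d1 overlaps Thra on the other strand, which was also called lower (-0.44, adjusted p = 0.0436). None of 33 nuclear genes of oxidative phosphorylation was called by edgeR, DESeq2 or limma, and 2 had an unadjusted p under 0.05, beside 16.2% of all genes. Of 14 genes of the mitochondrial chromosome 1 was called lower by DESeq2 and none by edgeR or limma. Before adjustment 5 passed 0.05, beside 16.2% of all genes. The log2 change was positive in 2 of the 14, beside 9270 of all 17180 genes. Their median was -0.484, and -0.181 without libraries 4 and 5.

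At 6 months, in 3 diabetic against 4 control libraries, 3934 genes were called (22.9%), 1922 higher (11.2%) and 2012 lower (11.7%). Of the 348 genes that rose at 3 months 233 also rose at 6 months (67% of the 3-month and 12.1% of the 6-month list) and none fell. Of the 337 that fell, 239 fell (70.9% and 11.9%) and 1 rose. Of the 36 fallers at least 4 times higher in TRAP by the 10 libraries of 3 months, 35 were called lower at 6 months (97.2%), while 9 of the 32 risers were called higher (28.1%) and none lower. Over all 636 genes of that kind, 13 were higher (2.04%) and 307 lower (48.3%) at 6 months, with a median log2 change of -0.862, against -0.0644 at 3 months.

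Mgat5b had a log2 change of -4.06 (adjusted p = 0.000186) at 6 months and Npr1 one of -1.89 (adjusted p = 9.92e-05). Prune2 had 1.31 (adjusted p = 0.0258), and Epha6 0.15 (adjusted p = 0.821). Of the podocyte identity genes 36 of 44 fell at 6 months, Nphs1 among them with -2.39 (adjusted p = 0.000576). In the androgen-dependent list 20 of 24 fell, and Kap had -4.41 (adjusted p = 6.09e-05). Gc (2.07), Cyp4a14 (3.19) and Mt1 (1.18) rose at both ages. Ehhadh, which fell at 3 months, had -0.23 (adjusted p = 0.42).

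The difference between the diabetic effects at the 2 ages was tested in the same fit. edgeR called no gene for it, 3252 had an unadjusted p under 0.05, DESeq2 called 582 and limma 4. Without diabetic library 4 of 3 months 259 genes were called, without libraries 4 and 5 2090, and without diabetic library 2 of 6 months 1911. That a gene was called at one age and not at the other therefore does not show that its effect differed.

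**Figure D5:**
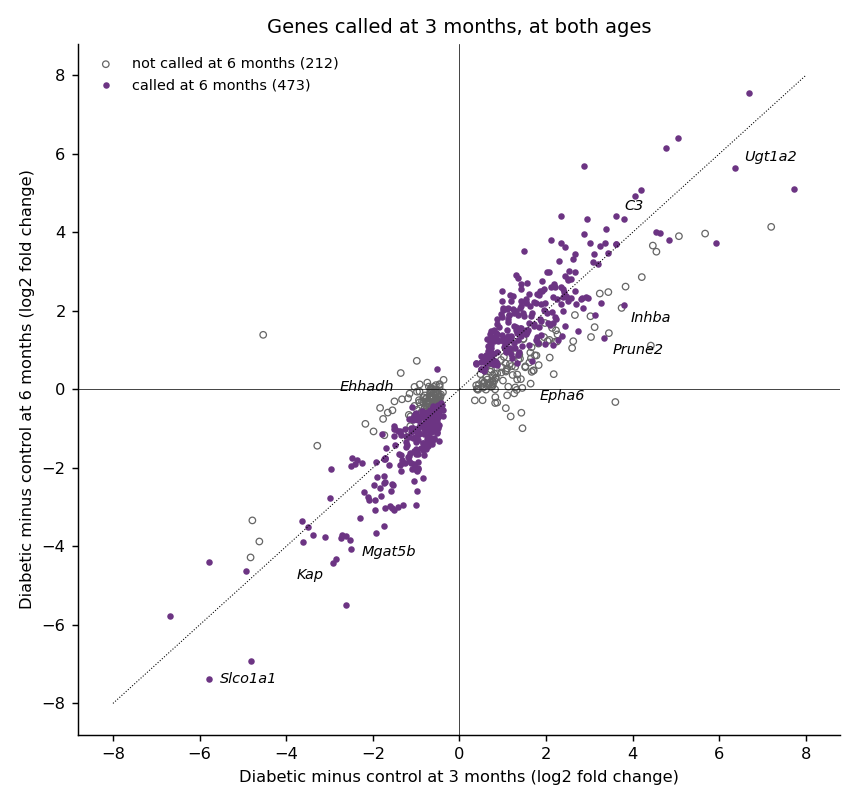
Log2 change in diabetic against control libraries at 3 months (horizontal) and at 6 months (vertical) for the 685 genes called at 3 months. Filled points were called at 6 months as well, open points were not, and the dotted line marks equal change. Slco1a1 and Mgat5b lie below the line among the fallers, and Prune2 and Epha6 lie below it among the risers.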

How the data were processed

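Libraries were grouped by genotype and age as the labels give them. The authors deposited raw read counts and FPKM for 32108 genes. Per the submitters' processing notes, reads were trimmed with cutadapt 1.16 and the tools STAR and featureCounts 1.15.2 were used. The notes name mm9, but of 31871 genes matched by identifier to GENCODE, 99.981% overlapped their GRCm38 position, so positions are given on GRCm38. No source used here gives the strand setting of the counting, so genes that overlap on opposite strands, and close paralogs, can share reads. The overlaps mentioned for single genes are not a full list. The NuGEN Ovation kit named in the labels is not said to add molecular identifiers, so read counts vary by more than counting error.

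The deposited counts of 17 libraries (3 and 6 months) entered 1 model in edgeR 4.0.16 (R 4.3.3). Library sizes were normalized by TMM and low genes were dropped by filterByExpr with its defaults. Genes were called by robust quasi-likelihood tests when the p adjusted by Benjamini-Hochberg over 17180 genes was under 0.05. Since the labels do not name separate mice, the p-values rest on the spread among libraries, which may be technical. Ratios to the single kidney library used unscaled CPM plus 0.5, averaged on the log2 scale, and carry no test. Alternatives were DESeq2 1.42.0, its size factors, limma 3.58.1 on log2 of the authors' deposited FPKM plus 0.1, other filters, the 10 libraries alone, a replicate block, other divisions by kidney ratio, and leaving out each library. Leaving out diabetic libraries 4 and 5 together was chosen after seeing the data. The fit was tested on simulated data. Figures used matplotlib 3.10.9 in Python 3.11.15.

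Genes were named by the rule given with the results, with up to 4 called members of lowest p from each gene list, the 8 most abundant podocyte identity genes, and genes that check the labels; a few genes are not reported here. In all 40 gene lists are used. The members and lists were chosen with earlier results of these data known.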

Additional observations from a re-analysis of the deposited data

Results flagged for a closer look

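Of 254 groups of 5 libraries checked for the genes named, 15 had a highest or lowest library far from the rest, where chance flags about 1 in 20. The value given is the gap to the nearest library divided by the range of the group. Diabetic library 4 was the one far off in 7 of them. It was highest for Slco1a1 (4.93 CPM, the next at 0.524, gap 0.913), S100a6 (226 and 56.2, gap 0.802), Cfi (16.1 and 5.65, gap 0.786), Timp1 (16.1 and 4.35, gap 0.78), Slc7a5 (16.6 and 6.13, gap 0.752) and Igfbp2 (76.2 and 25.7, gap 0.718), and lowest for Adamtsl5 (27.0 and 37.7, gap 0.743). Diabetic library 2 was lowest for Cd36 (3.82 CPM, the next at 13.4, gap 0.765), and diabetic library 3 highest for Rplp1 (304 and 177, gap 0.742). Among controls, library 1 was lowest for Sbsn (1.22 CPM, the next at 1.78, gap 0.852). Control library 3 was highest for Sspn (65.4 and 44.3, gap 0.818) and lowest for Il6ra (85.6 and 109, gap 0.787), Dock5 (612 and 786, gap 0.777) and Lgals3 (6.77 and 9.13, gap 0.721). Control library 4 was highest for Kap (3877 and 3372, gap 0.74).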

How the results depend on the processing

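DESeq2 called 1256 genes at 3 months, 612 higher and 644 lower in TRAP than in kidney, and 582 for the difference between ages. For that difference edgeR without a filter called 3 and limma 4. Without diabetic libraries 4 and 5 the counts were 418 in all, 164 among genes higher in TRAP and 2090 for the difference between ages. Dividing genes at 4 times left 68 called genes higher and 40 lower in TRAP. With a replicate block 403 genes were called, 173 higher and 230 lower in TRAP. Whether equal replicate numbers pair the libraries is not known. After each group's mean was taken away, same-numbered diabetic and control libraries had correlations of 0.0557, 0.142, -0.0617, 0.076 and 0.153. Diabetic libraries 2 and 4 correlated best with the control of their own number, and 1, 3 and 5 did not. Low correlations cannot show that no pairing existed. Leaving out 1 library at a time gave 404 to 1038 genes in all, 192 to 516 among genes higher in TRAP, 212 to 522 among genes lower in TRAP, and 0 to 1911 for the difference between ages. Among genes higher in TRAP it was 199 without control 1, 199 without control 2, 192 without control 4, 207 without control 5, 195 without diabetic library 4 and 516 without 6-month diabetic library 3. Among genes lower in TRAP it was 212 without control 4. The share of called genes that were higher in diabetic libraries was 50.8%, 59.9% with limma and 41.1% without diabetic libraries 4 and 5. Of 114 called genes named, DESeq2 called 114, limma 91, the block 80 and the fit without libraries 4 and 5 73, and 83 kept their call in each fit without 1 library of 3 months. Without libraries 4 and 5 Clic5 (0.0212), Nos3 (-0.171) and Wt1 (0.0258) changed sign, and none of the 3 was called. The causes of these changes were not tested. The single kidney library and the few libraries at 6 months limit the precision of what rests on them.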
